A study of Mus musculus with 9 samples.

Results

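Eda2r and Inka2 are 2 of the 57010 genes in the counts table of this study of the embryonic mouse cerebral cortex. They were chosen by the sharp difference in their RNA between Cnot3 conditional knockout (cKO) embryos and embryos in which Trp53, the gene of p53, was also targeted (dcKO). The difference between dcKO and cKO is therefore given as a description, with no test. The mutant libraries entered the choice, so the comparisons of each mutant with controls give no independent support either. Each symbol matched 1 Ensembl identifier, ENSMUSG00000034457.11 for Eda2r and ENSMUSG00000048458.9 for Inka2.

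Poly(A) RNA was sequenced from the cortex of 9 single embryos at E12.5, with 1 library per embryo and 3 embryos per group. Controls are labelled WT by genotype and Ctrl by title, and the labels do not say whether they carry Cre or floxed alleles. The mutants are labelled Cnot3 cKO and Cnot3;p53 dcKO (Cnot3;Trp53 dcKO in the titles). The study used Emx1-Cre, which is active in radial glial cells (RGCs) of dorsal telencephalon and in the cells they give rise to, so that cells of other origin in the tissue, such as microglia, are not its targets. The counts table assigned 26455779, 21193798 and 28869816 reads to genes in Ctrl replicates 1 to 3. Totals were 25946075, 24835674 and 25218324 reads in cKO and 34196798, 45073349 and 23275370 in dcKO. The embryo codes hold a number whose meaning the labels do not state.

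Eda2r encodes a receptor of the tumour necrosis factor (TNF) receptor family. It binds the A2 form of ectodysplasin, the product of Eda, and signals through TRAF adaptors to NF-κB. Inka2 encodes a small protein that binds and inhibits the kinase PAK4, a regulator of the actin cytoskeleton. p53 is a transcription factor that is stabilised under stress and raises genes of cell cycle arrest and cell death, and Cnot3 encodes a subunit of the CCR4-NOT complex, which shortens poly(A) tails of mRNA.

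The targeted genes were read first, in CPM, reads scaled by library size after TMM normalisation. Cnot3 had 117.3, 107 and 98.2 CPM in Ctrl replicates 1 to 3, 15.0, 17.3 and 14.6 in cKO and 7.33, 48.2 and 19.0 in dcKO. Trp53 had 237, 254 and 215 CPM in Ctrl, 167, 164 and 167 in cKO and 15.1, 110.4 and 20.6 in dcKO. Both genes were lower in every dcKO embryo than in every control, and Cnot3 was lower in every cKO embryo (exact permutation p = 0.1, two-sided, which no comparison of 3 with 3 embryos can go below). Every cKO embryo also had less Trp53 than any control (exact permutation p = 0.1). In dcKO replicate 2 Cnot3 was at 0.449 and Trp53 at 0.469 of the Ctrl mean, far above the other dcKO embryos.

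Markers of the dorsal telencephalon were present in every library. The 10 dorsal progenitor markers summed to between 3178 and 4343 CPM per embryo, with Vim the most abundant. The 8 neuronal markers summed to between 953 and 1907 CPM. The 4 intermediate progenitor markers summed to between 262 and 521 CPM. Markers of subpallium, the neighbouring ventral region, summed to 44.2 CPM in dcKO replicate 2 and to between 22.8 and 29.4 in the other embryos. Gsx2 and Nkx2-1 of that list, named after their values were seen, had reads in dcKO replicate 2 and in no other embryo. Of the oligodendrocyte lineage list, Olig1 had no read in any embryo.

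Among the libraries, dcKO replicates 2 and 3 stood apart, with voom quality weights of 0.125 and 0.112 against 1.19 to 4.09 in the other embryos. The dcKO replicates also differed from each other in a trend with GC content. Low-GC genes were higher relative to high-GC genes by 1.64 and 1.96 on the log2 scale in dcKO replicates 1 and 2, but by -0.27 in replicate 3, against -0.17, -0.11 and 0.28 in Ctrl and 0.68, 0.46 and 0.75 in cKO. The longest transcript of Eda2r is 40.9% G or C, at percentile 8.996 of the tested genes, and that of Inka2 is 50.5%, at percentile 55.9. Values of both genes without each of these libraries are given beside the results. Xist had reads in Ctrl replicates 2 and 3, cKO replicate 1 and dcKO replicate 2, and the Y-linked Ddx3y in the other embryos, so that each group held embryos of both sexes. This bears on Eda2r, which is X-linked.

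Eda2r (chromosome X from 97333840 to 97377216 of GRCm38, minus strand) was read 49, 48 and 79 times in Ctrl, 1100, 1572 and 963 times in cKO and 154, 111 and 33 times in dcKO. This came to 2.00, 2.38 and 2.85 CPM in Ctrl, 40.1, 58.5 and 36.3 in cKO and 4.28, 2.84 and 1.37 in dcKO. Every cKO embryo was high, while the dcKO embryos lay on both sides of the controls. The lowest cKO value was 8.49 times the highest value of any other embryo. In dcKO replicate 3, the lowest, the 95% counting interval ran from 0.940 to 1.92 CPM, and this covers counting error only.

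Inka2 (chromosome 3 from 105704599 to 105720842, plus strand) was read 298, 261 and 333 times in Ctrl, 983, 1211 and 912 times in cKO and 455, 465 and 231 times in dcKO. This came to 12.2, 12.9 and 12.0 CPM in Ctrl, 35.9, 45.0 and 34.4 in cKO and 12.6, 11.9 and 9.56 in dcKO. Again every cKO embryo was high, and dcKO and Ctrl overlapped. The gap was smaller than for Eda2r, with the lowest cKO value 2.66 times the highest of any other embryo. For both genes cKO replicate 2 was the highest embryo and dcKO replicate 3 the lowest.

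**Figure D1:**
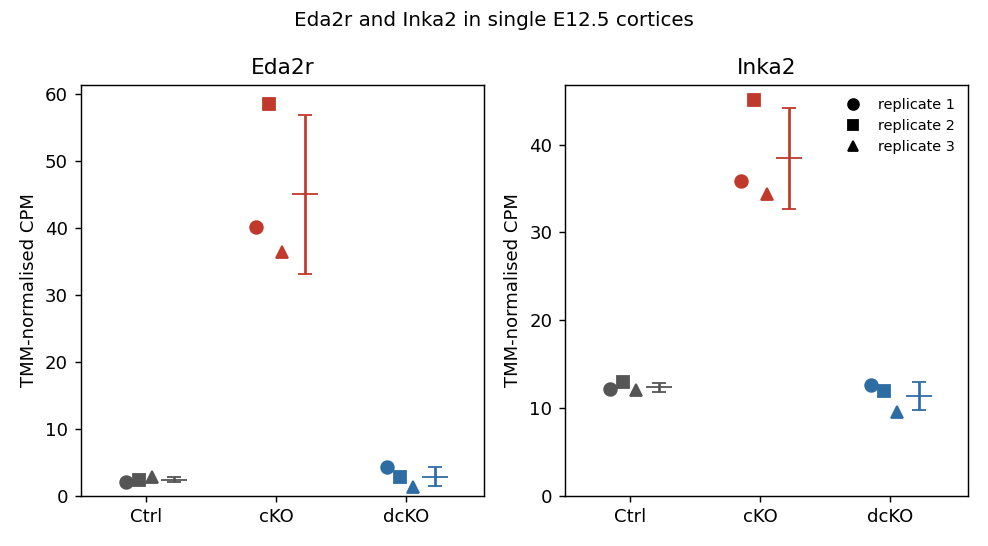
CPM of Eda2r and Inka2 (vertical axes, linear from 0) in each embryo of Ctrl, cKO and dcKO (horizontal axes); symbols mark the replicate number, and the bar beside each group is its mean with SD (n = 3). The cKO embryos lie between 36.3 and 58.5 CPM for Eda2r and between 34.4 and 45.0 for Inka2, above every other embryo.

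The order of the group means was cKO, dcKO, Ctrl for Eda2r, at 45.0 ± 11.8, 2.83 ± 1.46 and 2.41 ± 0.426 CPM (SD, n = 3). It was cKO, Ctrl, dcKO for Inka2, at 38.4 ± 5.77, 12.4 ± 0.505 and 11.4 ± 1.60 CPM. For each gene the lower pair in this order, Ctrl and dcKO, did not differ beyond the spread of the dcKO embryos. The cKO mean was 18.7 times the Ctrl mean for Eda2r and 3.11 times for Inka2, and 15.9 and 3.38 times the dcKO mean.

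Per kilobase of exon, the genes can be compared with each other. Eda2r had 0.409, 7.63 and 0.480 CPM per kb in Ctrl, cKO and dcKO, and Inka2 2.59, 8.04 and 2.38. The ratio of Eda2r to Inka2 on this scale was 0.133, 0.149 and 0.193 in Ctrl, 0.908, 1.05 and 0.857 in cKO and 0.275, 0.194 and 0.116 in dcKO. A gene well below Inka2 in controls was thus near its level in the cKO cortex, and the dcKO embryos were spread around the control ratio.

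Whether loss of Cnot3 alters these genes was asked by comparing cKO with Ctrl in 1 edgeR model of all 9 embryos. A gene was called at a Benjamini-Hochberg adjusted p under 0.05 over 13680 genes and an absolute log2 fold change above 1. Eda2r was higher in 3 of 3 cKO embryos, by 4.22 on the log2 scale (standard error, SE, 0.43, adjusted p = 0.0232 in edgeR). Inka2 was higher by 1.64 (SE 0.22), also in 3 of 3, but its edgeR adjusted p of 0.0509 missed the threshold. The exact two-sided permutation p was 0.1 for each gene, the smallest possible. Thus 1 of the 2 genes was called higher by edgeR, as were 0.0146% of all genes tested, and both by DESeq2 (adjusted p = 1.27e-21 for Eda2r and 2.09e-10 for Inka2), which called 4.94% higher and 3.87% lower.

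The call of Eda2r in cKO was lost in edgeR without any one of the Ctrl embryos (adjusted p from 0.130 to 0.211) or of the cKO embryos (0.103 to 0.162), with the log2 fold change at 3.98 to 4.36 over all left-out embryos. It was also lost with the presence of Xist reads as a factor (4.23, adjusted p = 0.0736) and with replicate number as a block (4.17, adjusted p = 0.128). In each of these fits edgeR called 0 genes higher and 0 lower in cKO, so the lost call is not particular to Eda2r. The Eda2r call was kept without dcKO replicate 2 (4.21, adjusted p = 0.00277) and without dcKO replicate 3 (4.22, adjusted p = 1.55e-04). Over all alternatives the adjusted p of Eda2r ran from 1.27e-21 to 0.211. Inka2 was called in edgeR without dcKO replicate 1, 2 or 3 (log2 fold change 1.64, 1.63 and 1.64, adjusted p = 0.00836, 0.00346 and 0.00468), within a range over alternatives from 2.09e-10 to 0.211. Those 3 fits leave out embryos that are not in the comparison itself, and in them edgeR called 520, 794 and 724 genes higher in cKO and 402, 380 and 752 lower, against 2 and 0 with all embryos. The gained call is therefore not particular to Inka2.

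Against Ctrl, dcKO embryos showed no called difference in either gene. The log2 fold change was 0.24 for Eda2r (SE 0.39, adjusted p = 0.706 in edgeR and 0.747 in DESeq2, exact permutation p = 0.9), with 1 of 3 embryos above every control. It was -0.12 for Inka2 (SE 0.22, adjusted p = 0.729 in edgeR and 0.673 in DESeq2, exact permutation p = 0.4). No gene at all was called in this comparison by edgeR (0 of 13680, with 3994 at an unadjusted p under 0.05), while DESeq2 called 4.66% higher and 3.79% lower. The edgeR count rested on single libraries, with 1005 genes called higher and 358 lower without dcKO replicate 2, and 1163 higher and 2089 lower without dcKO replicate 3.

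The sign and size of the Eda2r value in dcKO varied with the libraries and the fit. It was 0.69 with limma voom, 0.24 without dcKO replicate 2 and 0.56 without dcKO replicate 3 (edgeR adjusted p = 0.138), but -0.18 without dcKO replicate 1, with adjusted p from 0.138 to 0.902 over all alternatives. After a correction for GC content it was -0.30 (edgeR adjusted p = 0.554). For Inka2 it was -0.16 without dcKO replicate 2 and -0.013 without dcKO replicate 3.

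Some embryos of different groups share the number in their code. In the 2 such pairs of Ctrl and cKO, the mean log2 ratio of cKO to Ctrl was 4.39 for Eda2r and 1.65 for Inka2. In the 1 pair of Ctrl and dcKO, which holds dcKO replicate 3, the ratio was -1.05 for Eda2r and -0.33 for Inka2. A single pair gives no spread.

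Between dcKO and cKO, the contrast by which the genes were chosen, the log2 fold change was -3.98 for Eda2r (SE 0.42) and -1.76 for Inka2 (SE 0.22). Leaving out each embryo in turn gave -4.40 to -3.66 for Eda2r and -1.87 to -1.63 for Inka2. Among the 13680 tested genes Eda2r was number 2 in the order of lower expression in dcKO, between Dglucy at -4.69 and Phlda3 at -3.08. Inka2 was number 22, between Trp53 itself at -1.77 and Fam196a at -1.73. Ordered by log2 fold change over its standard error, Phlda3 was number 1, Eda2r number 2 and Inka2 number 3. Both genes were chosen by this contrast, so their places in either order follow from the choice and support nothing.

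Patterns over the 9 embryos were compared by the root mean square difference in log2 CPM after centring each gene on its mean. The tested genes most like Eda2r were Ccng1 (0.905), which encodes cyclin G1, Cdkn1a (1.00), a cyclin-dependent kinase inhibitor, Dglucy (1.02), D-glutamate cyclase, the noncoding 1700003M07Rik (1.03) and Ddit4l (1.04), an inhibitor of mTORC1 signalling. For comparison, the median over all tested genes was 2.04. In dcKO, Ddit4l had a log2 fold change of 1.11 (adjusted p = 0.0558 in edgeR and 0.00727 in DESeq2), with every dcKO embryo above every control. DESeq2 called it higher, as it did 4.66% of all genes. The likeness was measured over these same embryos, so this call is not independent of it. The others were at 0.31 for Ccng1, 0.21 for Cdkn1a, 0.30 for 1700003M07Rik and -0.93 for Dglucy, and overlapped the controls.

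The tested genes most like Inka2 were closer to it. They were Serpine2 (0.309), a secreted protease inhibitor, Slc19a2 (0.317), a thiamine transporter, Tnfrsf10b (0.317), a death receptor of the family to which Eda2r belongs, Mrc1 (0.322), the macrophage mannose receptor, and Map3k20 (0.347), a stress-activated kinase. The median over tested genes was 0.908. In dcKO, Slc19a2 had a log2 fold change of 0.30 (edgeR adjusted p = 0.310), with every dcKO embryo above every control. The others were at 0.053 for Serpine2, 0.24 for Tnfrsf10b, -0.058 for Mrc1 and 0.13 for Map3k20, and overlapped the controls. Inka2 was number 9 among the genes most like Eda2r (1.21), while Eda2r was number 12356 among those most like Inka2. With Pearson's r, which ignores the size of the range, each was number 1 for the other. Both genes were chosen by the difference between cKO and dcKO in these same embryos, so their likeness to each other follows from the choice.

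**Figure D2:**
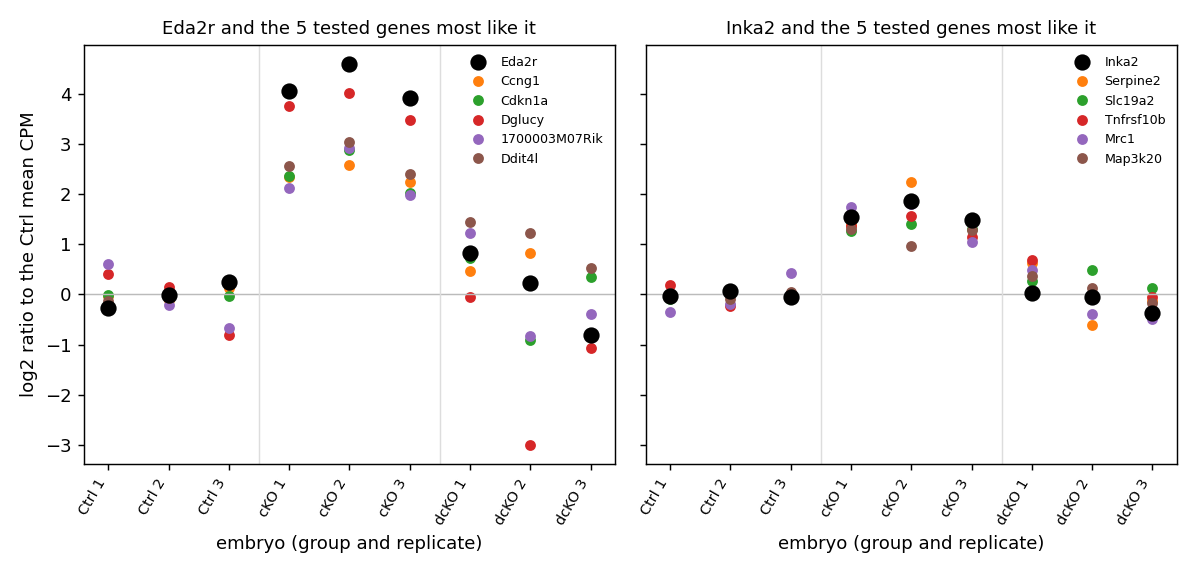
Log2 ratio of CPM to the Ctrl mean (vertical axes) in each embryo (horizontal axes), for Eda2r (left, black) and Inka2 (right, black) and the 5 tested genes most like each (colours). Eda2r and its 5 genes are above 0 in every cKO embryo, and Inka2 and its 5 genes likewise, over a narrower range.

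Mrc1 is a marker of macrophages, in which Emx1-Cre is not active, and the list of microglia and macrophage markers was read beside both genes. Of its 7 genes 5 were tested. By edgeR 0 were called in either mutant. In each, 1 was at an unadjusted p under 0.05, which 27.0% of all genes reached in cKO and 29.2% in dcKO. By DESeq2 Mrc1 was called higher in cKO, as were 4.94% of all genes, and 0 of the list were called in dcKO. Of the 5, 5 had a positive log2 fold change in cKO (median 0.55, against 0.0098 over all genes) and 0 in dcKO (median -0.88, against 0.11). The summed level of all 7 was 45.8, 53.2 and 50.7 CPM in Ctrl, 96.8, 118.6 and 60.9 in cKO and 37.2, 22.02 and 39.1 in dcKO. Mrc1 was the most abundant, and Aif1 had no read in dcKO replicate 2. The summed level was above all controls in every cKO embryo, with cKO replicate 2 the highest, as for Eda2r and Inka2. Mrc1 was picked by its likeness to Inka2 over these same embryos and is part of the sum. It gave 8.89, 9.92 and 15.1 CPM of the sum in Ctrl and 37.9, 39.7 and 23.3 in cKO. The likeness of the sum to Inka2 therefore follows in part from that choice, and the calls of Mrc1 are not independent of it. In dcKO the summed level was below all controls, whereas Eda2r and Inka2 overlapped them. Between dcKO and cKO, all 5 tested genes were lower, with a median log2 fold change of -1.54 (0.067 over all genes). Eda2r was at -3.98 and Inka2 at -1.76 there. All 5 were at an unadjusted edgeR p under 0.05, against 4.42% of all genes. edgeR called 0 of them, and DESeq2 called Mrc1 lower, as it did 48 of 13680 genes. The part of these cells in the levels of both genes was not tested. In RNA of whole tissue, fewer cells of a type and less RNA per cell cannot be told apart.

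The other cell lists were read in the same way. Erythroid markers, mostly globins such as Hbb-y, summed to 9988, 11110.0 and 7292 CPM in Ctrl, 14000.0, 9085 and 11900.0 in cKO and 6387, 4486 and 6312 in dcKO. Endothelial and mural markers, with Kdr the most abundant, ran from 242 to 306 CPM in Ctrl, 218 to 311 in cKO and 154 to 168 in dcKO. Both lists were lower in every dcKO embryo than in any other embryo, whereas Ctrl and cKO overlapped. Meningeal markers, led by Col3a1, ran from 780 to 858 CPM in Ctrl, 452 to 694 in cKO and 324 to 518 in dcKO, and markers of the cortical hem and choroid, led by Rspo1, from 24.2 to 54.5, 48.7 to 163 and 46.1 to 154. For the meningeal list all mutant embryos were below all controls.

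In dcKO, DESeq2 called 4 of 7 erythroid, 2 of 7 endothelial or mural and 3 of 6 meningeal genes lower, as it did 3.79% of all genes, and edgeR called 0 of each (5, 4 and 3 at an unadjusted p under 0.05, against 29.2% of all genes). Between dcKO and cKO, 0 of these 7, 7 and 6 genes had a positive log2 fold change (medians -1.11, -0.75 and -0.40, against 0.067 over all genes). In edgeR 6, 4 and 0 were at an unadjusted p under 0.05 (4.42% of all genes) and 0 were called. DESeq2 called 2, 1 and 0 lower, as it did 48 of 13680 genes. Of the 10 dorsal progenitor markers 9 were positive there (median 0.56). Lower values in dcKO than in cKO were thus not particular to the macrophage list. Of the 6 hem and choroid genes 4 were tested, with a median log2 fold change of 1.78 in cKO and 1.45 in dcKO. DESeq2 called 2 of these 4 higher and 1 lower in each mutant (Bmp7, Lmx1a and Wnt2b, named after their values were seen), against 4.94% and 3.87% of all genes in cKO and 4.66% and 3.79% in dcKO. By edgeR 0 were called (4 at an unadjusted p under 0.05 in cKO and 3 in dcKO, against 27.0% and 29.2% of all genes). This list was thus on the same side of the controls in both mutants by its median, whereas Eda2r and Inka2 exceeded the controls in all embryos of cKO but not of dcKO. Of the 10 dorsal progenitor markers, 2 had a positive log2 fold change in cKO (median -0.51, and 0.45 for Vim), and edgeR called 0 (4 at an unadjusted p under 0.05, against 27.0% of all genes). DESeq2 called 3 lower, Emx1, Hes5 and Lhx2, named after their values were seen, and 3.87% of all genes. In dcKO the median was -0.045, and neither tool called any of them (0 in each, with 1 at an unadjusted p under 0.05 in edgeR). Skeletal muscle markers stayed between 1.20 and 9.99 CPM and oligodendrocyte lineage markers between 37.1 and 56.2 CPM. The part of these lists in the levels of Eda2r and Inka2 was not tested.

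No annotated gene with reads overlaps either gene. On the side of lower coordinates, the nearest gene with reads to Eda2r is Pgr15l, 251736 bases away with 12 reads over the 9 embryos. Near Inka2 lie the noncoding Gm43848, 5059 bases away with 157 reads, and Ddx20, 17025 bases away, which encodes an RNA helicase. Ddx20 had 49.1 ± 2.80 CPM in Ctrl, 80.5 ± 4.81 in cKO and 79.8 ± 20.9 in dcKO (SD, n = 3). Unlike Inka2, Ddx20 was at a like level in both mutants, with log2 fold changes of 0.71 and 0.70. Every mutant embryo was above every control (adjusted p = 0.0641 and 0.0631 in edgeR, 0.0187 and 0.0235 in DESeq2). Neither tool called Ddx20, whose log2 fold changes were below 1.

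Other genes raised by p53 were read from a list of 33, without Eda2r and Inka2, of which 29 were tested. By edgeR 0 were called in cKO (16 at an unadjusted p under 0.05, which 27.0% of all genes reached), and by DESeq2 11 were called higher, as were 4.94% of all genes. The edgeR count was 9, 11 and 11 without dcKO replicate 1, 2 and 3, fits in which 520, 794 and 724 of all genes were called higher. In cKO 22 of the 29 had a positive log2 fold change, with a median of 0.81 against 0.0098 over all genes tested. The largest were Cdkn1a at 2.46, Ccng1 at 2.39, Phlda3, a repressor of AKT, at 1.90, Ak1, adenylate kinase, at 1.86 and Perp at 1.79. All 5 were thus below Eda2r at 4.22 and above Inka2 at 1.64.

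At the other end of the list stood Pidd1 at -0.58, Mdm2, the ubiquitin ligase of p53, at -0.39 and Btg2 at -0.34, and none of them was called (edgeR adjusted p = 0.295, 0.367 and 0.247). These values were negative where those of Eda2r and Inka2 were positive. In dcKO the list had a median of 0.24 against 0.11 over all genes, with 18 of 29 positive. By edgeR 0 were called in dcKO (9 at an unadjusted p under 0.05, which 29.2% of all genes reached). By DESeq2 1 was higher and 3 were lower, against 4.66% and 3.79% of all genes. Between dcKO and cKO the list had a median of -0.51 against 0.067 over all genes, with 5 of 29 positive. In edgeR 10 were at an unadjusted p under 0.05 (4.42% of all genes). There edgeR called 1 of the list lower, as it did 2 of 13680 genes, and DESeq2 called 6 lower, as it did 48. Phlda3 was below every control in dcKO, at a log2 fold change of -1.18 (SE 0.28, adjusted p = 0.0511 in edgeR and 0.00106 in DESeq2), whereas Eda2r and Inka2 overlapped the controls there.

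Reads of Eda were counted per gene, so the A2 form, which Eda2r binds, was not told apart from the A1 form. Eda had 5.79, 6.25 and 5.84 CPM in Ctrl, 6.24, 6.62 and 9.12 in cKO and 13.7, 6.003 and 5.38 in dcKO. It was not called in either mutant (log2 fold change 0.30 in cKO and 0.49 in dcKO, edgeR adjusted p = 0.649 and 0.412), and the groups overlapped. Edar, the receptor for the A1 form of ectodysplasin, had 0, 0 and 2 reads in Ctrl, 3, 5 and 7 in cKO and 6, 3 and 0 in dcKO. Its adaptor Edaradd had 3, 2 and 16 reads in Ctrl, 29, 31 and 26 in cKO and 30, 21 and 0 in dcKO. In CPM, every cKO embryo was above every control for Edar and above every other embryo for Edaradd, but both genes had too few reads to be tested. Per kilobase of exon, Edar was at 0.00661, 0.0513 and 0.0223 CPM per kb in Ctrl, cKO and dcKO, well below Eda2r in each group.

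Downstream of Eda2r, TRAF adaptors, kinases and NF-κB subunits made a list of 17 genes, of which 16 were tested. By edgeR 0 were called in either mutant (3 at an unadjusted p under 0.05 in each, against 27.0% of all genes in cKO and 29.2% in dcKO). By DESeq2 1 gene, Traf3, was lower in each, against 3.87% and 3.79% of all genes. Their median log2 fold change was -0.13 in cKO and -0.0070 in dcKO. Of 10 targets of NF-κB, 7 were tested, and by edgeR 0 were called in either mutant (1 at an unadjusted p under 0.05 in each). DESeq2 called 0 of these 7 in cKO and Icam1 lower in dcKO, and their medians were 0.095 and 0.23.

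Of 27 other genes of the TNF receptor family, 12 were tested. By edgeR 0 were called (3 at an unadjusted p under 0.05 in cKO and 4 in dcKO, against 27.0% and 29.2% of all genes). By DESeq2 Tnfrsf10b was higher in cKO, as were 4.94% of all genes, and Ngfr lower in dcKO, as were 3.79%. The family's median log2 fold change was -0.21 in cKO and -0.50 in dcKO. Tnfrsf10b had 8.08 ± 1.21 CPM in Ctrl, 20.8 ± 3.02 in cKO and 9.57 ± 2.97 in dcKO (SD, n = 3). Its most abundant member, Tnfrsf19, had a log2 fold change of -0.90 in cKO (adjusted p = 0.0649 in edgeR and 0.015 in DESeq2), opposite in sign to Eda2r. Traf3, Icam1 and Ngfr were named here after their values were seen.

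For Inka2, the list held its paralogue Inka1, the PAK kinases and genes that act with them on actin and junctions, and 14 of its 15 genes were tested. None was called by either tool, with edgeR at 0 in each mutant (7 at an unadjusted p under 0.05 in cKO and 6 in dcKO, against 27.0% and 29.2% of all genes) and DESeq2 at 0. The median log2 fold change was -0.22 in cKO and -0.19 in dcKO. Inka1, which also inhibits PAK4, had 2.90, 3.42 and 2.78 CPM in Ctrl, 2.44, 1.19 and 1.81 in cKO and 0.861, 0.332 and 2.32 in dcKO. All mutant embryos were below all controls, at log2 fold changes of -0.74 and -1.40 (edgeR adjusted p = 0.449 and 0.157). The paralogues thus had opposite signs in cKO. Per kilobase, Inka1 and Inka2 were near each other in controls, at 2.62 and 2.59 CPM per kb, and apart in cKO, at 1.57 and 8.04.

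Pak4, whose product Inka2 inhibits, had a log2 fold change of -0.90 in cKO and -0.71 in dcKO (edgeR adjusted p = 0.157 and 0.223). Pak5 of the same subgroup had 0.98 and 0.73 (adjusted p = 0.0514 and 0.0736 in edgeR, 0.00101 and 0.0191 in DESeq2), and Pak6 had too few reads to be tested. The kinases of the other subgroup were at 0.50 and 0.56 for Pak1, -0.16 and 0.092 for Pak2 and 0.096 and 0.54 for Pak3 in cKO and dcKO. Their activators Cdc42 and Rac1 were at 0.016 and -0.28 in cKO and 0.28 and -0.15 in dcKO. Of those tested, no gene was above every control in cKO while overlapping the controls in dcKO, as Inka2 did.

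Further along that pathway, Limk1, a kinase of cofilin, had log2 fold changes of -0.94 in cKO and -0.92 in dcKO, and Limk2 -0.058 and -0.23. Cofilin itself, Cfl1, was at -0.93 and -0.86 (adjusted p = 0.0585 and 0.0638 in edgeR, 0.00742 and 0.0123 in DESeq2), and its phosphatase Ssh1 at -0.58 and -0.59. Ctnnb1, beta-catenin, was at -0.47 and -0.39. For Limk1, Cfl1, Ssh1 and Ctnnb1 every embryo of both mutants was below every control.

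The annotation gives Eda2r 4 transcripts, of which 2 are coding, and Inka2 2 coding transcripts. Reads were counted per gene, so transcripts were not told apart. The study's primers for Eda2r show which transcripts a PCR product would cover. Both match both coding transcripts of GENCODE M21, at bases 1122 to 1266 of Eda2r-201 and 1101 to 1245 of Eda2r-202, with a product of 145 bases, and neither transcript with a retained intron. They are printed 5′ to 3′.
Eda2r forward primer: taccaaggtgaactagaaaggtct
Eda2r reverse primer: ccccatttttgaacgctggt

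To show the sequence at the starts of both genes, the 250 bases upstream are given from RefSeq (GRCm38.p6). There is 1 window for Eda2r and 2 for Inka2, whose 2 coding transcripts start at different places. Capitals mark matches on either strand to the TATA motif (TATAAA), the CCAAT box (CCAAT), the GC box (GGGCGG) and the p53 half-site decamer. The windows are chrX:97377210-97377459 on the minus strand for Eda2r and chr3:105704349-105704598 and chr3:105705208-105705457 on the plus strand for Inka2. The Eda2r window reaches a few bases into the gene of GENCODE M21, which starts at 97377216 on the minus strand. Each window is printed 5′ to 3′ on the strand of the gene.
Eda2r upstream window: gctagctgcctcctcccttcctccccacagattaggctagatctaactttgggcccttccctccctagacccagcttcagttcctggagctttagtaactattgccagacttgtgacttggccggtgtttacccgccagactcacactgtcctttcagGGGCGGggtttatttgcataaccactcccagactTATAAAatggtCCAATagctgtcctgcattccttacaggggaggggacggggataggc
Inka2 upstream window 1: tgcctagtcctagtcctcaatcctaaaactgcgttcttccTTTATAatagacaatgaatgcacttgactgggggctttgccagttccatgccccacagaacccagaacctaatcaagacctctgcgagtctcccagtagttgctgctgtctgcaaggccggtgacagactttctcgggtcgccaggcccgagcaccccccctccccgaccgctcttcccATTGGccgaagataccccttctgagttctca
Inka2 upstream window 2: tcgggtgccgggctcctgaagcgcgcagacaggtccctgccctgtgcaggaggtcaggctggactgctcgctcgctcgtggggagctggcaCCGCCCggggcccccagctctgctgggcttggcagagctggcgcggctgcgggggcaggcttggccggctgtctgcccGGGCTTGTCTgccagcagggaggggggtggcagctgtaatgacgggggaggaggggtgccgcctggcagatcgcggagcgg

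The Eda2r window held the TATA motif, the CCAAT box and the GC box once each and no half-site, at 53.2% G or C with 4 CpG dinucleotides. Window 1 of Inka2 held the TATA motif and the CCAAT box, both on the other strand, at 54.8% G or C with 9 CpG. Window 2 of Inka2 held the GC box on the other strand and 1 p53 half-site, at 73.6% G or C with 19 CpG. Of 32851 such windows, 12.4% held the TATA motif, 33.8% the CCAAT box, 32.7% the GC box and 7.13% at least 1 half-site. A pair of half-sites, as in a full p53 site, was in 0.0639% of all windows and in none of these 3. A match says only that these letters are in the window, and its absence says nothing of p53.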

How the data were processed

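Stranded mRNA libraries of 9 E12.5 cortices were used. The deposited table holds raw read counts per gene, which the authors made with cutadapt, STAR (mm39) and featureCounts, per the labels. Gene positions, exon lengths and transcripts came from GENCODE M21 (GRCm38), and positions therefore refer to GRCm38. Genes whose count exceeded 10 in each embryo (13680 of 57010, both genes included) were fitted with edgeR 4.0.16 (TMM, quasi-likelihood F-test, all 9 embryos in 1 model) and called at a Benjamini-Hochberg adjusted p under 0.05 with a log2 fold change beyond 1 in size. Standard errors came from the fold change and its F statistic. Single genes were also compared by exact two-sided permutation tests. The code was tested on simulated data. Alternatives were DESeq2 1.42.0, limma 3.58.1 (voom with quality weights), other scaling factors and read filters, the 2 compared groups alone, a replicate block, presence of Xist as a factor, each embryo left out, pairs sharing the number in the embryo codes and, chosen after seeing the data, a GC correction. Named genes were Eda2r, Inka2, the targeted genes, the 5 most like each, neighbours with reads, the 5 largest and 3 smallest p53 targets in cKO, the ectodysplasin and PAK lists, and of other lists any gene called and the most abundant; some of these are not reported here. Eda2r, Inka2 and the lists were chosen with earlier results of these data known. R 4.3.3 and Python 3.11.15 were used.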

Additional observations from a re-analysis of the deposited data

How the results depend on the processing

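Eda2r stayed higher in cKO than in Ctrl under every alternative run. Its edgeR call was lost with Xist as a factor (log2 fold change 4.23, adjusted p = 0.0736) and with replicate number as a block (4.17, adjusted p = 0.128). The call was also lost without any one Ctrl or cKO embryo. In each of these fits edgeR called 0 of all genes in cKO. Leaving out each embryo gave 3.98 to 4.36 (adjusted p from 1.55e-04 to 0.211; 1.27e-21 to 0.211 over all alternatives). In dcKO the Eda2r value against Ctrl turned negative with a GC correction (-0.30), with GC correction and replicate block (-0.34), in the 1 pair sharing the number in the embryo codes (-1.05) and without dcKO replicate 1 (-0.18), with a left-out range of -0.18 to 0.56. The highest value was 0.69, with voom. It was not called in any fit.

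Inka2 in cKO, just short of the threshold in edgeR, was called with DESeq2 (1.62), voom (1.56), upper-quartile factors (1.74), no filter (1.58), the 2 groups alone (1.63) and GC correction (1.57), and without any one dcKO embryo. It was not called with RLE factors (edgeR adjusted p = 0.0514), filterByExpr (0.0596), Xist as a factor (0.0951) or the replicate block (0.128). Nor was it called with GC correction and replicate block (0.0667) or without any one Ctrl or cKO embryo (0.130 to 0.211). Of all genes, the fits that did not call Inka2 called from 0 to 4 higher in cKO and 0 lower. Over all alternatives the adjusted p ran from 2.09e-10 to 0.211. Its left-out range was 1.51 to 1.70. In dcKO the range was -0.20 to -0.013, and the pair sharing a code number gave -0.33. Between dcKO and cKO the ranges were -4.40 to -3.66 for Eda2r and -1.87 to -1.63 for Inka2, and voom gave -3.45 and -1.59.

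The p53 targets called in cKO, 0 in edgeR (16 at an unadjusted p under 0.05), were 11 with DESeq2, 11 with voom, 7 with upper-quartile factors, 9 with no filter, 11 with the 2 groups alone, 12 with GC correction and 2 with GC correction and replicate block. They were 0 with RLE factors, filterByExpr, Xist as a factor and the replicate block. Those fits called 2, 2, 0 and 0 of all genes higher in cKO and 0 lower. Over all genes, calls in cKO were 957 higher and 911 lower with voom, 331 and 93 with upper-quartile factors, 386 and 427 with no filter, 1004 and 846 with the 2 groups alone, 410 and 236 with GC correction and 4 and 0 with GC correction and block. The p53 targets called were 0 to 11 with each embryo left out in edgeR and 6, 8, 9, 10 or 11 in DESeq2. Of all genes, these edgeR fits called from 0 to 794 higher in cKO (794 without dcKO replicate 2). The DESeq2 fits called from 354 (without cKO replicate 2) to 903 (without dcKO replicate 2) higher. Upper-quartile factors moved the median log2 fold change of all genes in cKO from 0.0098 to 0.12. By Pearson's r the ranks of likeness between both genes, 9 and 12356, became 1 and 1.

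With replicate number as a block, pairing embryos by number, the log2 fold changes in cKO were 4.17 for Eda2r and 1.63 for Inka2. Neither was called in that fit (edgeR adjusted p = 0.128 for both, within the ranges above), nor was any other gene in cKO. After centring the tested genes on each group's mean, mean r was -0.17 over 9 pairs of embryos with the same number and 0.084 over 18 other pairs. The centring ties both means to each other, so they do not decide whether numbers pair the embryos. The GC correction, whose effect on Eda2r was known from earlier results, its combination with the block and the DESeq2 fits without single embryos were chosen after seeing the data. The cause of these changes was not tested. Counts of 33 to 154 reads limit the precision of Eda2r in Ctrl and dcKO.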
